A study of Mus musculus with 28 samples.

Results

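The 8 genes described here, Awat1, Awat2, Dgat2l6, Far2, Scd3, Elovl3, Soat1 and Mc5r, encode enzymes of wax, fatty acid and sterol ester synthesis and 1 receptor that are known from the sebaceous gland. They were taken by name from the table of raw gene counts. All 8 of 8 were among its 29068 genes, and all 8 were among the 18107 genes with enough counts to be tested. Mouse skin of genotype C57BL/6J, which the study calls MLKL+/+, was sequenced in 28 libraries, 4 on each of Day0, Day3, Day5, Day7, Day10, Day12 and Day14, under the treatment label natural wound healing. The mice were adult littermates of a single age with a full-thickness punch wound on the shaved back, and the whole wound was collected with its scab and margins. The labels use Day0 as the control, whereas the study counts from day 1, which its methods place after injury and a caption places at the wounding itself, and nothing in the labels says how the Day0 skin was sampled. The design text speaks of 5 repeats and 4 libraries a day were analysed here. Nothing in the labels says which libraries came from separate animals, so p-values measure the spread between these libraries.

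The sebaceous gland is a holocrine gland beside the hair follicle. Its cells fill with lipid droplets, burst and release sebum, which contains wax esters, sterol esters and triglycerides. Wax esters are made by joining a fatty alcohol to a fatty acid. Far2 reduces fatty acyl-CoA to the alcohol, Awat1 and Awat2 join alcohol and acid, Scd3 puts a double bond into the acid and Elovl3 lengthens it. Dgat2l6 is an acyltransferase of the same family as the Awat enzymes, Soat1 attaches a fatty acid to cholesterol, and Mc5r is a melanocortin receptor of the sebocyte that promotes sebum output.

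Of these genes, Awat2, Dgat2l6 and Awat1 lie within 175985 bases of the X chromosome (GRCm38, the mm10 assembly, in the GENCODE annotation). Awat2 spans chrX:100402221-100442717 on the minus strand. Dgat2l6 spans chrX:100524838-100546144 on the plus strand, and Awat1 follows 26106 bases further on at chrX:100572251-100578205, also on the plus strand. Igbp1 and Otud6a are the other protein-coding genes of the interval, which held 5 in all. Scd3 (chr19:44203269-44244016) and Elovl3 (chr19:46131897-46135694) lie on the plus strand of chromosome 19, Far2 (chr6:148047259-148182758) on the plus strand of chromosome 6 and Soat1 (chr1:156424525-156474331) on the minus strand of chromosome 1. The 250 bases before the RefSeq start (GRCm38.p6) of the 3 X-linked neighbours are shown because these neighbours encode acyltransferases of the same family and their levels are set side by side below.
Awat1: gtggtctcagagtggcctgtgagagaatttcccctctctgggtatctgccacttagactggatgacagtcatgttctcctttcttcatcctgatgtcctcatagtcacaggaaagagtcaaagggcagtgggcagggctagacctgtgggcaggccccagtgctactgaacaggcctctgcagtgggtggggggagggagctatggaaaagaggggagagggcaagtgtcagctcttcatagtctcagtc
Awat2: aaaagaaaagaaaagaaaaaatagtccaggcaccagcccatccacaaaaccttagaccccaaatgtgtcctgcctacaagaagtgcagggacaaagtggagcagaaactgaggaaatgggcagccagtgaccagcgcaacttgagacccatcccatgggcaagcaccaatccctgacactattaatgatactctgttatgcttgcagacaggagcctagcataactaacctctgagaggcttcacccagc
Dgat2l6: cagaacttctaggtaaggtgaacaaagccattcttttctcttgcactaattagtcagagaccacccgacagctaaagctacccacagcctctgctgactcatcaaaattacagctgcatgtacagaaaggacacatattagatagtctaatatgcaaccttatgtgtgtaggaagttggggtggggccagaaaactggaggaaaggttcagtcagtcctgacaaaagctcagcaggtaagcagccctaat
These windows are chrX:100571997-100572246 (plus strand), chrX:100442718-100442967 (minus strand) and chrX:100524588-100524837 (plus strand), each written 5′ to 3′ in the direction of its gene. Motifs were searched on both strands in the 32851 windows of the table, which held 7 windows for 6 of the sebaceous lipid genes, 2 of them for Awat2. No base is in capitals, since no motif searched was found in the windows shown. GGGCGG, the SP1 motif, was found in Far2 and in the other Awat2 window (32.7% of all windows). AGGTCA, the nuclear receptor site (14.0% of all windows), its direct repeat with 1 base between, which contains it (0.0335%), TCACNCCAC of SREBP (1.05%), TATAAA (12.4%), TTGCGCAA of C/EBP (0.164%) and CACGTG, the E-box (6.02%), did not match in these 7 windows, which says only that those letters are not there.

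The library totals ran from 36706513 to 40655764 counts. The 4 Day0 libraries varied more than those of any later day, with a biological coefficient of variation of 26.4% against 5.70% to 10.8%. They fell into a pair of libraries, replicates 2 and 3, and another, replicates 1 and 4: 402 genes were at least 2-fold higher and 351 at least 2-fold lower in replicates 2 and 3 without overlap. In replicates 1 and 4 the wound keratin Krt6b stood at 923 and 275 counts, against 23 and 35 in replicates 2 and 3, and the acute phase gene Saa3 at 1026 and 356 against 35 and 32. Per2 and Dbp, genes of the circadian clock, stood at 1193 and 1662, and at 4405 and 6141 counts, in replicates 1 and 4, against 152 and 83, and 738 and 661, in the others. These 4 genes were chosen after their values were seen. Over the 4 Day0 libraries the summed FPKM of 17 hair follicle genes ran from 156 to 1097 and that of 10 skeletal muscle genes from 13667 to 22685. The part of wounding, of the hour of sampling or of these tissues in the Day0 differences was not tested. Where a call or direction of the 8 genes against Day0 rests on a pair, it is given with and without that pair. In addition, all libraries had at most 13 counts of Xist and at least 2101 of Ddx3y. That is the pattern of male tissue, although mice of both sexes were used in the study.

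The most abundant of the 8 transcripts on Day0, on the FPKM scale (fragments scaled to gene length and library total), were Far2 and Scd3, with means of 94.6 ± 5.91 and 89.1 ± 13.9 (SD, n = 4). Elovl3 followed at 44.3 ± 9.92, Awat1 at 41.3 ± 17.5, Soat1 at 29.5 ± 5.52, Awat2 at 13.7 ± 1.17, Dgat2l6 at 11.5 ± 11.4 and Mc5r at 4.56 ± 0.517. Against the mean of the 4 Day0 libraries all 8 were lower on day 3, and their later courses differed. Far2, Mc5r, Elovl3 and Soat1 took their largest step up between days 7 and 10. Far2, Awat1, Awat2 and Scd3 were lower than Day0 on each day to day 14. Elovl3 and Soat1 reached or passed the Day0 mean on at least 1 day, and for Dgat2l6 the direction against Day0 on days 3, 5, 7 and 12 turned with the Day0 libraries used. In these bulk samples, fewer cells of a type and less RNA per cell cannot be told apart.

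**Figure D1:**
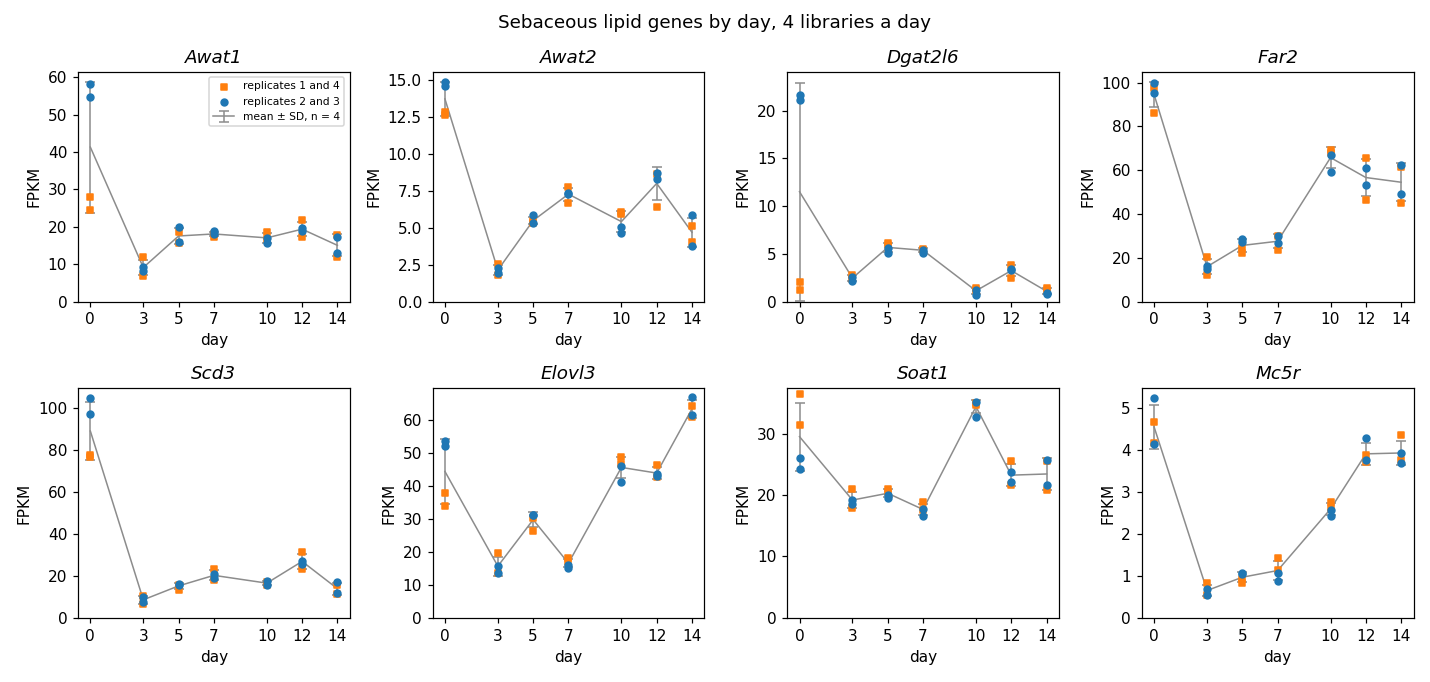
FPKM of the 8 genes (vertical axes from 0) against day (horizontal axes), with 1 point per library and grey lines joining the day means ± SD (n = 4). Squares are replicates 1 and 4 and circles replicates 2 and 3, which on Day0 separated by the widest margin for Dgat2l6 (1.22 and 2.07 against 21.1 and 21.7) and did not separate for Far2.

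By day 3, each of the 8 genes was below its Day0 mean, and 8 of 8 passed the test (edgeR's quasi-likelihood test, Benjamini-Hochberg adjusted p under 0.05), when 34.8% of all genes tested were lower. Without Day0 replicates 2 and 3, 7 were lower (29.5% of all genes in that fit) and Dgat2l6 was higher, and without replicates 1 and 4, 8 were lower (32.6%). The day 3 and Day0 libraries did not overlap for 7 of the 8, Dgat2l6 being the exception, where 28.6% of all genes were lower without overlap (on the log2 CPM scale). Those 7 genes had an exact two-sided permutation p of 0.0286, the smallest that 4 against 4 libraries can give. With the limits of the study's methods, a log2 fold change over 1.5 and an unadjusted P under 0.05, 6 of 8 were lower, against 12.4% of all genes. The median log2 fold change of the 8 was -2.34, against -0.03 for all genes tested. All 6 later days were compared with the same 4 Day0 libraries. The 8 genes were chosen with earlier results of these data known, so their counts beside the shares of all genes are a description.

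**Figure D2:**
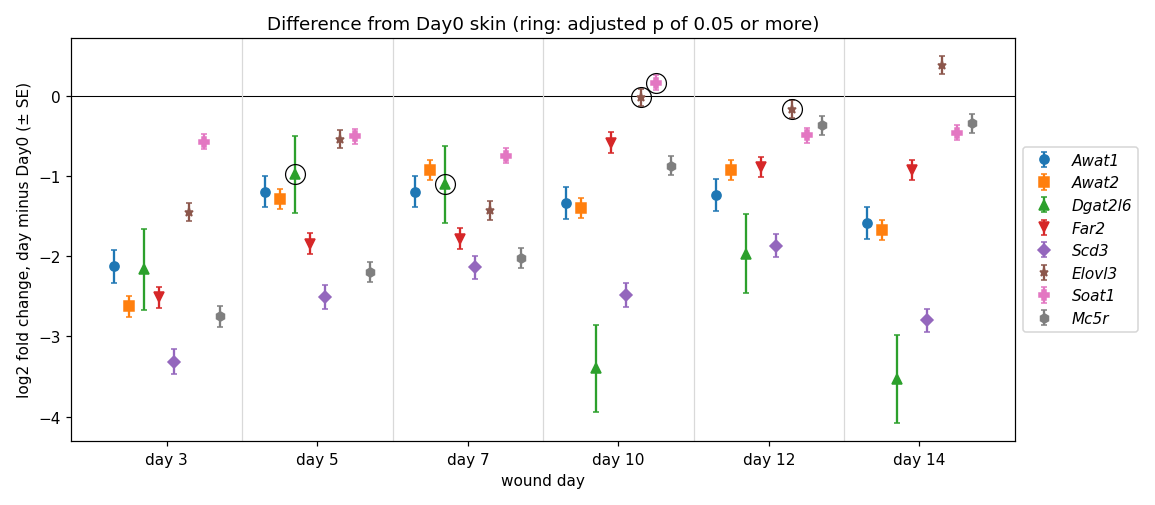
log2 fold change against Day0 (vertical axis, ± SE from the edgeR fit, 4 libraries a day) of the 8 genes on each later day (horizontal axis). Rings mark the 5 values that did not pass an adjusted p of 0.05: Dgat2l6 on days 5 and 7, Elovl3 on days 10 and 12, and Soat1 at day 10.

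Far2, which supplies the fatty alcohols of wax esters, had 86.1, 99.7, 95.1 and 97.3 FPKM in the Day0 libraries and 20.6, 14.8, 16.2 and 12.2 on day 3. The drop was 5.71-fold (log2 fold change -2.51 ± 0.14 SE, adjusted p = 3e-15 in edgeR), with every day 3 library below every Day0 library. Levels were 22.1 to 28.6 at day 5 and 23.4 to 30.1 at day 7, and then 68.0, 66.8, 59.0 and 69.3 at day 10. This last step, 2.30-fold (log2 1.20 ± 0.13, adjusted p = 4.3e-08 in edgeR), separated all day 10 from all day 7 libraries. On days 12 and 14 the ranges, 46.6 to 65.7 and 45.1 to 62.3, overlapped that of day 10, and all were still under the lowest Day0 library. The log2 fold change against Day0 was -0.92 ± 0.13 on day 14 (adjusted p = 5.7e-07 in edgeR), and it was -0.96 without Day0 replicates 1 and 4 and -0.80 without replicates 2 and 3. Of the stretches of 75 bases in the Far2 transcripts, 9.68% also occurred in other genes, nearly all in Ergic2, whose exons overlap 837 bases of Far2 on the opposite strand. Without a stated strand setting, reads from there cannot be told apart.

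Mc5r, the receptor, had the lowest level of the 8 on Day0 and, after Scd3, the largest drop on day 3. It had 4.67, 5.25, 4.15 and 4.18 FPKM on Day0 (727, 848, 650 and 612 counts) and 0.837, 0.688, 0.545 and 0.546 on day 3 (130, 107, 85 and 85 counts), a 6.71-fold drop (log2 -2.75 ± 0.13, adjusted p = 2.6e-16 in edgeR). It was still at 0.8288 to 1.07 on day 5 and 0.882 to 1.44 on day 7. The next steps were both upward: 2.44 to 2.76 on day 10, 2.22-fold above day 7 (log2 1.15 ± 0.12, adjusted p = 4.5e-08 in edgeR), and 3.72 to 4.29 on day 12, 1.42-fold above day 10 (log2 0.50 ± 0.12, adjusted p = 0.0012 in edgeR). Neither step had overlapping libraries. On day 14 the libraries stood at 3.78, 3.93, 3.69 and 4.36, overlapping both day 12 and Day0 in FPKM. The small deficits against Day0, log2 -0.36 ± 0.12 on day 12 and -0.34 ± 0.12 on day 14 (adjusted p = 0.012 and 0.013 in edgeR), were lost with library totals alone as scaling (-0.22 and -0.21, adjusted p = 0.14 and 0.13), which moved the median of all genes by 0.14 and 0.13 on the log2 scale on these days. The day 12 deficit was also lost in the 3 limma fits of FPKM (-0.21 to -0.17, adjusted p = 0.0503 to 0.17) and that of day 14 in 2 of those 3 (adjusted p = 0.055 and 0.16). Neither passed without Day0 replicates 2 and 3 (adjusted p = 0.061 and 0.16) or without Day0 replicate 2 alone (-0.28 and -0.22, adjusted p = 0.061 and 0.12). On day 14 the loss of Day0 replicate 1 had the same effect (-0.25, adjusted p = 0.088).

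Scd3, a desaturase whose transcript was nearly as abundant as Far2 on Day0, did not climb back with Far2 after day 7. It had 77.8, 105, 97.0 and 76.8 FPKM on Day0 and 10.6, 9.77, 7.69 and 6.48 on day 3, a 9.94-fold drop (log2 -3.31 ± 0.15, adjusted p = 9.7e-17 in edgeR) and the largest of the 8 genes on that day. It rose to 13.4 to 16.3 on day 5 (1.75-fold, adjusted p = 1e-04 in edgeR) and was at 17.8 to 23.2 on day 7. It then stood at 15.6 to 17.7 at day 10, 31.6, 25.5, 27.2 and 23.4 at day 12, and 11.2, 11.8, 17.0 and 15.8 at day 14. In FPKM the day 12 libraries were above all others from the wound, the lowest at 23.4 against 23.2 in Day7 replicate 1 (in log2 CPM days 7 and 12 overlapped). They were 1.53-fold over day 10 (log2 0.61 ± 0.14, adjusted p = 0.00087 in edgeR), and day 14 fell 1.91-fold below them (log2 -0.93 ± 0.14, adjusted p = 5.6e-06 in edgeR). On day 14 the transcript was still 6.96-fold under Day0 (log2 -2.80 ± 0.15, adjusted p = 6.3e-15 in edgeR), and the value was -2.97 without Day0 replicates 1 and 4 and -2.52 without replicates 2 and 3. The smaller rise from day 5 to day 7 (log2 0.37 ± 0.14, adjusted p = 0.049 in edgeR) passed the threshold in 1 of 8 fits with a library left out. The fall from day 7 to day 10 did not pass (log2 -0.34 ± 0.14, adjusted p = 0.061 in edgeR), although the libraries did not overlap. It passed in 2 of 12 alternatives and in 1 of 8 fits with a library left out. Of the 75-base stretches of Scd3, 3.195% were shared, with Scd1 holding all 111 of them.

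Awat2, which joins alcohols and acids to wax esters, was even across the Day0 libraries at 12.8, 14.9, 14.6 and 12.6 FPKM. It fell 6.17-fold to 2.53, 1.95, 2.25 and 1.82 on day 3 (log2 -2.63 ± 0.13, adjusted p = 7.5e-16 in edgeR). It was the member with the largest rise from day 3 to day 5, 2.54-fold to 5.31 to 5.85 (log2 1.34 ± 0.13, adjusted p = 1.1e-08 in edgeR). It reached 6.68 to 7.76 at day 7 (log2 0.36 ± 0.12, adjusted p = 0.028 in edgeR, a call lost in 5 of 8 fits with a library left out, with adjusted p up to 0.08), dropped to 4.64 to 6.04 at day 10 (log2 -0.48 ± 0.12, adjusted p = 0.0037 in edgeR), rose again to 6.37 to 8.70 at day 12 (log2 0.47 ± 0.12, adjusted p = 0.0029 in edgeR) and fell to 3.74 to 5.87 at day 14 (log2 -0.75 ± 0.12, adjusted p = 2e-05 in edgeR). In FPKM the libraries of neighbouring days did not overlap in any of these steps (on the log2 CPM scale those of days 10 and 12 did), and each of the 6 wound days lay under Day0. Its day 14 deficit was 3.18-fold (log2 -1.67 ± 0.13, adjusted p = 5.6e-12 in edgeR).

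Awat1, the other wax synthase, was split on Day0. Replicates 2 and 3 had 58.2 and 54.7 FPKM and replicates 1 and 4 had 24.5 and 27.97, a 2.15-fold difference between the pair means. On day 3 the libraries had 12.0, 8.29, 9.27 and 6.98, 4.36-fold under Day0 in the fit (log2 -2.12 ± 0.20, adjusted p = 5.2e-10 in edgeR), and every one of them was under the lower Day0 pair. It rose 1.91-fold to 15.8 to 19.8 on day 5 (log2 0.93 ± 0.20, adjusted p = 0.0011 in edgeR). From there it moved little: 17.4 to 18.9 at day 7, 15.6 to 18.7 at day 10, 17.2 to 21.9 at day 12 and 12.0 to 17.9 at day 14, with overlap between each pair of neighbours in the order of levels. The size of its deficit depended on the Day0 pair. On day 5 the log2 fold change of -1.19 ± 0.20 (adjusted p = 7.4e-06 in edgeR) became -1.64 without replicates 1 and 4 and -0.53 without replicates 2 and 3 (adjusted p = 0.0028), and on day 14 the value of -1.58 became -2.02 and -0.85. The call stood in each case.

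Dgat2l6, the third X-linked acyltransferase, had by far the widest Day0 spread of the 8, 1374 and 1369 counts in replicates 2 and 3 against 130 and 72 in replicates 1 and 4. In FPKM these were 21.1 and 21.7 against 2.07 and 1.22, a 13-fold difference between pair means. Ranked by the gap between the pairs, it stood at place 15 of the 18107 genes tested. The wound days were narrow by comparison: 2.15 to 2.78 at day 3, 5.06 to 6.12 at day 5, 5.07 to 5.56 at day 7, 0.740 to 1.43 at day 10, 2.51 to 3.80 at day 12 and 0.801 to 1.46 at day 14. Days 3, 5, 7 and 12 thus lay between the Day0 pairs, while days 10 and 14 overlapped or lay under the lower pair.

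Against all 4 Day0 libraries, Dgat2l6 was lower on day 3 (log2 -2.16 ± 0.50, adjusted p = 0.00046 in edgeR) and on day 12 (-1.97 ± 0.49, adjusted p = 0.0017). The day 12 call was lost in 4 of 12 alternatives, an edgeR fit of the 8 libraries alone (adjusted p = 0.09) and the 3 limma fits of FPKM (-0.86, adjusted p = 0.11 to 0.20). The day 3 call was lost in the limma fit with a pseudocount of 0.1 (-1.24, adjusted p = 0.052). Its log2 values of -0.98 ± 0.48 on day 5 and -1.10 ± 0.48 on day 7 did not pass (adjusted p = 0.079 and 0.057 in edgeR), and the limma fits of FPKM gave -0.20 to -0.064 and -0.26 to -0.14. The day 7 value passed in 1 of 12 alternatives. Without Day0 replicates 2 and 3 it was higher on days 3, 5, 7 and 12, at 0.68, 1.83, 1.69 and 0.84 (adjusted p = 0.0095, 4.5e-08, 2.5e-07 and 0.0027 in edgeR). Without replicates 1 and 4 it was lower on the same days, at -3.05, -1.87, -1.99 and -2.86. On days 10 and 14 it was lower under both, -4.28 and -0.60 on day 10, and -4.42 and -0.66 on day 14 (adjusted p = 0.035 and 0.017 without replicates 2 and 3). Its exact two-sided permutation p for 4 against 4 libraries was 0.429, 1, 1, 0.0571, 0.429 and 0.0571 on days 3, 5, 7, 10, 12 and 14, where 0.0286 is the smallest possible.

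The comparisons between wound days do not use the Day0 libraries in the difference. In them Dgat2l6 fell 4.90-fold from day 7 to day 10 (log2 -2.29 ± 0.54, adjusted p = 0.0015 in edgeR), with counts of 353, 351, 329 and 349 against 75, 74, 47 and 91. It rose 2.69-fold to day 12, with 245, 217, 220 and 161 counts (log2 1.43 ± 0.54, adjusted p = 0.036 in edgeR), and fell 2.95-fold to day 14, with 77, 54, 51 and 90 counts (log2 -1.56 ± 0.54, adjusted p = 0.02 in edgeR). Libraries of neighbouring days did not overlap in any of these 3 steps. The rise to day 12 missed the threshold in 6 of 8 fits with a library left out (highest adjusted p 0.098), with the replicate block (adjusted p just over 0.05) and in the limma fits of log2(FPKM + 1) with and without a filter (0.99, adjusted p up to 0.087). The fall to day 14 missed it in 2 of 8 fits with a library left out (adjusted p = 0.055) and in the same pair of limma fits (-1.03, adjusted p = 0.057 and 0.073). The rest of the 12 alternatives kept both calls, with a lowest adjusted p of 4.4e-07 for the rise and 5.2e-06 for the fall. In the main fit both steps were tested with the spread of all 28 libraries, those of Day0 included. From day 3 to day 5 the counts of 174, 135, 165 and 146 and of 397, 324, 359 and 375 did not overlap either. That step had an adjusted p of 0.086 with the spread of all 28 libraries and of 3.3e-06 in an edgeR fit of its 8 libraries alone (log2 1.19 in both). Per2, which split the Day0 libraries the opposite way, stood at 135 to 205 counts at day 3, 367 to 537 at day 5, 355 to 440 at day 7, 904 to 944 at day 10, 931 to 1092 at day 12 and 592 to 727 at day 14.

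**Figure D3:**
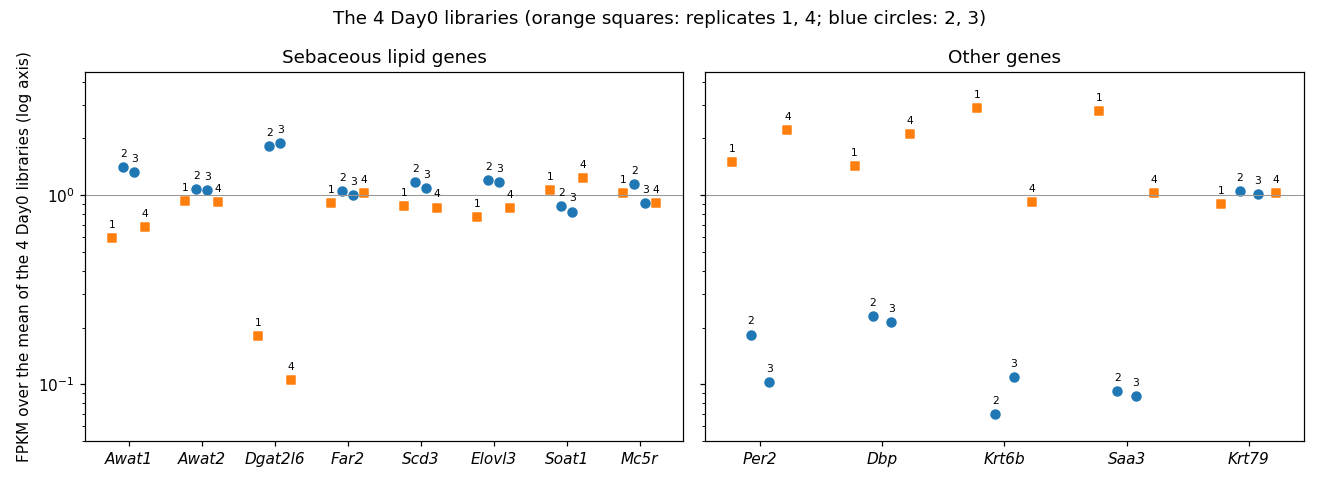
FPKM of each Day0 library over the mean of the 4 (vertical axis, log scale) for the 8 sebaceous lipid genes (left) and for 5 other genes chosen after their values were seen (right), with the replicate number beside each point. Dgat2l6 and Awat1 were higher in replicates 2 and 3, in which Per2, Dbp, Krt6b and Saa3 were lower, while Far2, Mc5r and the duct keratin Krt79 lay near 1 in all 4.

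The split of the Day0 libraries also touched Elovl3 (1.47-fold higher in replicates 2 and 3), Scd3 (1.30-fold) and Awat2 (1.16-fold). Far2 and Mc5r (both 1.06-fold) overlapped between the pairs. Soat1 went the other way, at 0.741 of the level of replicates 1 and 4. Krt79, a keratin of the sebaceous duct, had 18821 to 22883 counts in the 4 libraries.

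Elovl3, the elongase, was the 1 gene to end above Day0. Its Day0 libraries had 33.9, 53.5, 52.0 and 37.9 FPKM, and those of day 3 had 19.7, 13.6, 15.8 and 13.5, a 2.72-fold drop (log2 -1.45 ± 0.12, adjusted p = 1.1e-11 in edgeR). It then went up and down: 26.4 to 31.1 at day 5 (1.88-fold above day 3, adjusted p = 8.5e-07 in edgeR), 15.2 to 18.2 at day 7 (1.85-fold below day 5, adjusted p = 7.2e-07 in edgeR) and 41.0 to 48.6 at day 10 (2.65-fold above day 7, adjusted p = 3.5e-10 in edgeR). Libraries did not overlap in any of these steps. Day 12 had 42.6 to 46.3 and day 14 had 60.7, 61.4, 66.8 and 64.1, all above the highest Day0 library. The day 14 excess of 1.31-fold (log2 0.39 ± 0.11, adjusted p = 0.0036 in edgeR) was 0.14 without Day0 replicates 1 and 4 (adjusted p = 0.2) and 0.77 without replicates 2 and 3. Days 10 and 12 did not differ from Day0 by the test (log2 -0.02 ± 0.11 and -0.16 ± 0.11, adjusted p = 0.92 and 0.25 in edgeR). Leaving out either pair gave opposite signs on both days, -0.26 and 0.29 on day 10 (adjusted p = 0.02 and 0.022) and -0.41 and 0.16 on day 12 (adjusted p = 0.00055 and 0.22).

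Elovl3 is also a gene of brown fat, and a list of 8 other brown fat genes was counted beside it. Of these, 5 were higher than Day0 and 1 lower at day 3 (31.8% and 34.8% of all genes), 7 and 0 at day 5 (29% and 30.6%), 5 and 0 at day 7 (25.6% and 24.8%), 5 and 1 at day 10 (23.5% and 26.9%), 3 and 5 at day 12 (21.7% and 25.6%), and 5 and 3 at day 14 (28.2% and 34.5%). Ucp1, the uncoupling protein that defines brown fat, had 0.0935 to 0.759 FPKM on Day0, 422 to 557 at day 3, 983 to 1142 at day 5, 306 to 351 at day 7, 181 to 197 at day 10, 3.44 to 7.08 at day 12 and 292 to 411 at day 14. The summed FPKM of the list ran from 259 to 378 on Day0, from 1031 to 1345 at day 3, from 1707 to 1987 at day 5, from 943 to 1222 at day 7, from 678 to 736 at day 10, from 143 to 160 at day 12 and from 795 to 1053 at day 14. The part of brown fat in the Elovl3 values was not tested.

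Soat1, which esterifies cholesterol in many cell types, had the smallest drop of the 8 on day 3. Its Day0 libraries had 31.4, 26.0, 24.3 and 36.4 FPKM, and on day 3 it had 21.01, 19.3, 18.6 and 17.9, 1.48-fold lower (log2 -0.57 ± 0.09, adjusted p = 6.4e-06 in edgeR). It was at 19.6 to 21.1 at day 5 and 16.6 to 18.8 at day 7, and rose to 35.0, 35.2, 32.8 and 34.6 at day 10, 1.88-fold over day 7 (log2 0.91 ± 0.09, adjusted p = 1.9e-08 in edgeR). It then fell 1.57-fold to 21.6 to 25.5 on day 12 (log2 -0.65 ± 0.09, adjusted p = 2.1e-06 in edgeR) and stood at 20.8 to 25.8 on day 14. Day 10 was thus a single peak, which overlapped Day0 (log2 0.17 ± 0.09, adjusted p = 0.14 in edgeR). It passed the test in 4 of 12 alternatives, library totals as scaling (0.22, adjusted p = 0.043) and the 3 limma fits of FPKM. It also passed without Day0 replicate 4 (0.28, adjusted p = 0.0061). Without Day0 replicates 2 and 3 the day 10 value was -0.04, and without replicates 1 and 4 it was 0.40 (adjusted p = 0.76 and 0.00012 in edgeR). Macrophages also express Soat1, and of 10 macrophage genes 10 were higher than Day0 on day 3 (31.8% of all genes), 5 were higher and 5 lower on day 10 (23.5% and 26.9%), and 10 were lower on day 14 (34.5%). Their summed FPKM was 1321 to 1892 on Day0, 3640 to 3822 at day 3, 1875 to 1995 at day 10 and 744 to 834 at day 14, and from day 7 to day 10, when Soat1 rose, 10 of the 10 were lower (18% of all genes). Of 10 skeletal muscle genes, 10 were lower than Day0 on day 3 (34.8% of all genes, median log2 fold change -2.52). All 10 were higher at day 10 than at day 7 (14.3%, median 1.00) and 7 were lower at day 12 than at day 10 (20.7%, median -0.43). From day 12 to day 14, 7 were lower (25.3%, median -0.48), while Soat1 was at log2 0.03 ± 0.09. Their summed FPKM was 13667 to 22685 on Day0, 2782 to 3595 at day 3 and 3281 to 3715 at day 7. It was 6558 to 7972 at day 10, 5205 to 5849 at day 12 and 3737 to 4330 at day 14. The part of macrophages or of muscle in the Soat1 values was not tested.

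Across the later days, 7 of the 8 genes were lower than Day0 at day 5 (30.6% of all genes tested), 7 at day 7 (24.8%), 6 at day 10 (26.9%), 7 at day 12 (25.6%) and 7 at day 14 (34.5%). Elovl3 was higher on day 14 (28.2% of all genes were higher). Without Day0 replicates 2 and 3 the numbers lower on these days were 6, 7, 6, 5 and 6, against 28.1%, 24.6%, 24.9%, 22% and 26.9% of all genes in those fits. Elovl3 was then not called at day 5 (log2 -0.22, adjusted p = 0.059 in edgeR, against -0.78 without replicates 1 and 4), nor Mc5r at days 12 and 14, and Dgat2l6 was higher at days 5, 7 and 12. Without replicates 1 and 4 the numbers lower were 8, 8, 7, 8 and 7, against 28.5%, 22.3%, 24.8%, 24.3% and 32.7% of all genes. With the limits of the study's methods the numbers lower were 3, 3, 2, 2 and 4, against 8.31%, 4.74%, 5.14%, 3.51% and 8.83% of all genes. Scd3 was among them on each of these days. Without overlap of the libraries (log2 CPM), 7, 7, 5, 6 and 5 genes were lower, against 23.2%, 19.3%, 21.9%, 20.2% and 27.3% of all genes, and Elovl3 was higher at day 14 (23.4%). From 1 wound day to the next, 6 of 8 were higher at day 5 than at day 3 (12.9% of all genes), 2 were higher at day 7 than at day 5 (13.9%), namely Awat2 and Scd3, and Elovl3 was lower (14.6%). On day 10, 4 genes, Far2, Mc5r, Elovl3 and Soat1, were higher than on day 7 (14.3%), and Awat2 and Dgat2l6 were lower (18%). Awat2, Dgat2l6, Mc5r and Scd3 were higher on day 12 than on day 10 (18.7%), with Soat1 lower (20.7%). Elovl3 was higher on day 14 than on day 12 (19.9%), with Awat2, Dgat2l6 and Scd3 lower (25.3%). With the study's limits Dgat2l6 was the 1 gene lower at day 10 than at day 7 (3.22% of all genes) and at day 14 than at day 12 (2.78%). Awat2, Dgat2l6 and Scd3 moved the same way in each of the last 2 steps. All 8 varied among the 6 wound days in a joint test, as did 85.1% of all genes.

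Levels per length also changed order. On Day0 Far2 and Scd3 led, on day 3 Soat1 (19.2 ± 1.34) and Far2 (16.0 ± 3.49) did, and on day 14 Elovl3 (63.3 ± 2.77) and Far2 (54.5 ± 8.75). The summed FPKM of the 8 was 273 to 383 on Day0, 61.8 to 90.0 at day 3, 116 to 128 at day 5, 108 to 122 at day 7, 172 to 196 at day 10, 164 to 207 at day 12 and 159 to 200 at day 14.

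Differences between libraries of the same day were also compared among the 8 genes. With the day means removed, log2 CPM of the 8 genes was compared in all 28 pairs over the 24 wound libraries. In all, 15 of 28 pairs had a positive Pearson's r with an adjusted permutation p under 0.05, and r ran from 0.15 (Scd3 and Dgat2l6) to 0.87. The lowest r among the 15 was 0.49, and 4.55% of all pairs of the 18107 genes tested lay at or above it, as a description over pairs that share libraries and, within them, composition. The closest pair was Far2 and Scd3 (r = 0.87, Spearman's rho = 0.85, permutation p = 6e-05 and 0.00013, adjusted p = 0.00084 and 0.0012, r = 0.90 without the 2 libraries farthest from the median of Far2). Next came Awat2 and Far2 (r = 0.84, rho = 0.84, permutation p = 2e-05 and 3e-05, adjusted p = 0.00056 and 0.00084, r = 0.83 without 2 libraries). Awat1 and Awat2 had r = 0.81 and rho = 0.82 (permutation p = 0.00017 and 9e-05, adjusted p = 0.0016 and 0.0012, r = 0.79 without 2 libraries). Dgat2l6 passed with no other gene (r of 0.15 to 0.42). With the Day0 libraries included, 10 of 28 pairs passed and r ran from -0.63 to 0.87, the lowest being Dgat2l6 and Soat1.

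**Figure D4:**
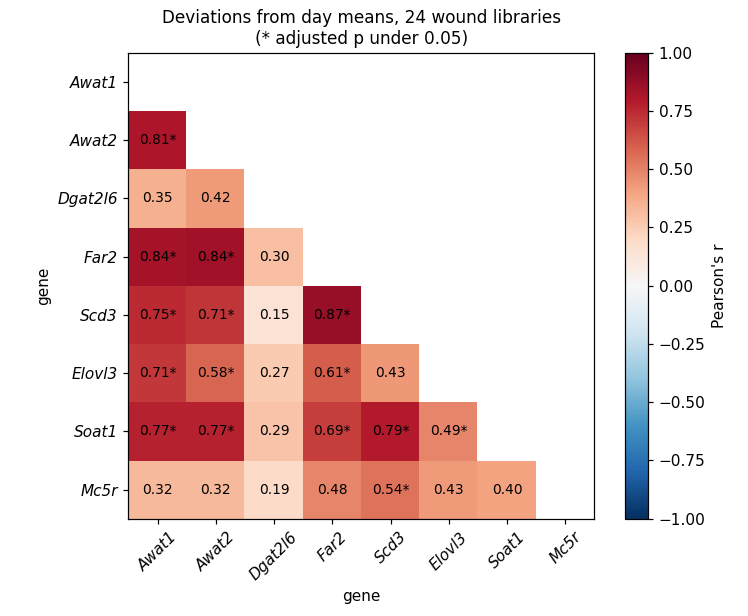
Pearson's r between pairs of the 8 genes (both axes), computed on deviations of log2 CPM from the day means over the 24 wound libraries. Asterisks mark the 15 pairs with an adjusted permutation p under 0.05, which join Far2, Scd3, Awat1, Awat2, Soat1 and Elovl3, with Mc5r joined to Scd3 alone and Dgat2l6 to none.

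Some genes outside the 8 followed the same pattern over the 28 libraries, by Pearson's r of log2 CPM, given as a description over libraries that share 7 days. Far2 was most like Elovl4, a very-long-chain elongase (r = 0.99), Sdr16c5 (0.98) and Pnpla5 (0.98). Awat1 was most like Acox2 (0.97), Ces4a (0.97) and Cyb5a (0.95), Awat2 most like Sema3b (0.94), Gpr155 (0.94) and Gm31305 (0.94), and Scd3 most like Aldh1a1 (0.98), 9330159F19Rik (0.97) and Gm32219 (0.96). For Mc5r these were Fzd7 (0.98), Efnb2 (0.97) and Tlcd4 (0.97), and for Dgat2l6 they were Rnase2b (0.96), Pi16 (0.94) and Aadacl4 (0.94). Elovl3 was most like Efna1 (0.89), Vsnl1 (0.87) and Zfp219 (0.87), and Soat1 most like Pctp (0.91), Actn2 (0.87) and Synpo2l (0.86).

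Other lipid synthesis genes went both ways on day 3. Of 26 other enzymes and droplet proteins of wax and neutral lipid synthesis, all tested, 13 were higher and 9 lower on day 3 (31.8% and 34.8% of all genes), and the median log2 fold change was 0.20. The counts higher and lower were 11 and 8 at day 5 (29% and 30.6% of all genes), 13 and 6 at day 7 (25.6% and 24.8%), 9 and 7 at day 10 (23.5% and 26.9%), 1 and 10 at day 12 (21.7% and 25.6%), and 7 and 10 at day 14 (28.2% and 34.5%). Fa2h, which hydroxylates fatty acids, was the lowest of the list on days 3, 5 and 7, at -2.79 ± 0.16 at day 3 (adjusted p = 7.4e-15 in edgeR), and had log2 -0.15 ± 0.15 at day 10 (adjusted p = 0.42). Elovl4 and Acsbg1, which lengthens and which activates very long fatty acids, were lower on every day, at -2.40 ± 0.12 and -2.48 ± 0.14 on day 3 (adjusted p = 4.1e-16 and 5.3e-15 in edgeR) and -1.01 ± 0.11 and -1.21 ± 0.13 on day 14 (adjusted p = 1.2e-08 and 6.3e-09). Soat2, the other sterol acyltransferase, was the highest on days 3 and 5, at 4.43 ± 0.33 and 3.53 ± 0.33 (adjusted p = 3e-12 and 4.2e-10 in edgeR), while Soat1 fell. Mogat2, of triglyceride synthesis, was the highest on days 7 and 10, at 3.26 ± 0.47 and 2.93 ± 0.47 (adjusted p = 1.5e-06 and 8.5e-06 in edgeR). Scd1, another desaturase of the Scd family, was at 0.74 ± 0.08 on day 3 (adjusted p = 6.2e-09 in edgeR), when Scd3 was at -3.31, Scd4 at -1.60 ± 0.41 and Scd2 at -0.54 ± 0.16 (adjusted p = 0.0012 and 0.0056 in edgeR). Fads2 was the highest on days 12 and 14 (1.31 and 1.81), and Plin5 at day 12 (-1.35) and Scd4 on days 10 and 14 (-1.80 and -1.72) were the lowest.

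Of 12 regulators and duct genes of the sebaceous gland, 2 were higher and 8 lower on day 3 (31.8% and 34.8% of all genes), with a median log2 fold change of -0.87, and 4 were higher and 5 lower on day 14 (28.2% and 34.5%), with a median of -0.23. Krt79 fell from 230 to 269 FPKM on Day0 to 53.1 to 72.9 on day 3 (log2 -2.04 ± 0.09, adjusted p = 1.3e-16 in edgeR). It was at 105 to 114 on day 7 and at 175 to 206 on day 10 (log2 -0.44 ± 0.09, adjusted p = 0.00019 in edgeR), then at 214 to 261 for day 12 (log2 -0.22 ± 0.09, adjusted p = 0.047) and 164 to 219 for day 14 (log2 -0.53 ± 0.09, adjusted p = 1.4e-05). Pparg, a regulator of sebocyte and adipocyte differentiation, was higher at day 3 (log2 0.54 ± 0.07, adjusted p = 2.2e-07 in edgeR), lower at day 12 (-0.22 ± 0.07, adjusted p = 0.012) and higher at day 14 (0.36 ± 0.07, adjusted p = 9.2e-05). Lgr6, a stem cell receptor, was the lowest on days 3, 7 and 12 (-2.28, -1.30 and -0.93), Krt79 on day 5 (-1.62), and Gata6, of the upper duct, on day 14 (-1.12). Muc1 was the highest on days 3 and 5 (1.98 and 1.098), Prdm1 at day 7 (0.55), Mgst2 at day 10 (0.84) and Sox9 on days 12 and 14 (0.40 and 0.62).

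Around Mc5r, 8 of the 12 melanocortin pathway genes on the list could be tested. Of these, 2 were higher and 2 lower on day 3 (31.8% and 34.8% of all genes), and 3 were higher and 1 lower on day 14 (28.2% and 34.5%). Pomc, the precursor of the melanocortin peptides, was the highest on day 3, at log2 1.14, but did not pass (adjusted p = 0.15 in edgeR). Pomc was also the highest for day 5 (1.16) and Agrp, a melanocortin receptor antagonist, for day 7 (1.54), neither of which passed (adjusted p = 0.15 and 0.063 in edgeR). Cpe, which trims peptide hormones, was the lowest on day 3 (-2.12, adjusted p = 1.6e-21 in edgeR), day 7 (-0.62) and day 14 (-0.80). The prohormone convertase Pcsk2 was the lowest for day 5 (-2.61, adjusted p = 0.0063 in edgeR) and Pcsk1 for day 10 (-0.82, adjusted p = 0.23). Mrap, a melanocortin receptor accessory protein, was the lowest for day 12 (-0.47, adjusted p = 0.0024 in edgeR). Mc1r, the receptor of pigment cells, was the highest of the list on days 10, 12 and 14, at 3.10 ± 0.40, 4.54 ± 0.38 and 5.50 ± 0.38 (adjusted p = 2.2e-07, 1.9e-10 and 1.2e-12 in edgeR), days on which Mc5r was at or below its Day0 level.

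Genes of the hair follicle, beside which the gland sits, and of other tissues were counted as well. The summed FPKM of 17 hair follicle genes was 156 to 1097 on Day0, 5.12 to 7.99 at day 3, 7.67 to 12.0 at day 5, 639 to 878 at day 7, 180 to 206 at day 10, 2746 to 3655 at day 12 and 2907 to 3773 at day 14. All 17 were lower on days 3 and 5 (34.8% and 30.6% of all genes) and all 17 higher on days 12 and 14 (21.7% and 28.2%). From day 7 to day 10, 3 were higher and 11 lower (14.3% and 18% of all genes), and from day 10 to day 12 all 17 were higher (18.7%). Of 12 basal and suprabasal epidermal genes, 10 were lower on day 3 (34.8% of all genes, median log2 fold change -1.12) and 8 on day 14 (34.5%). The 10 skeletal muscle genes were lower on all 6 days (24.8% to 34.8% of all genes, medians of -2.52 to -1.51). Of 10 white adipocyte genes 3 were higher and 5 lower on day 3 (31.8% and 34.8% of all genes). Of the 5 steroidogenic genes, 2 could be tested, and their summed FPKM stayed at 1.75 to 4.82 in all libraries. The part of the amount of skin or of these tissues in the values of the 8 genes was not tested.

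**Figure D5:**
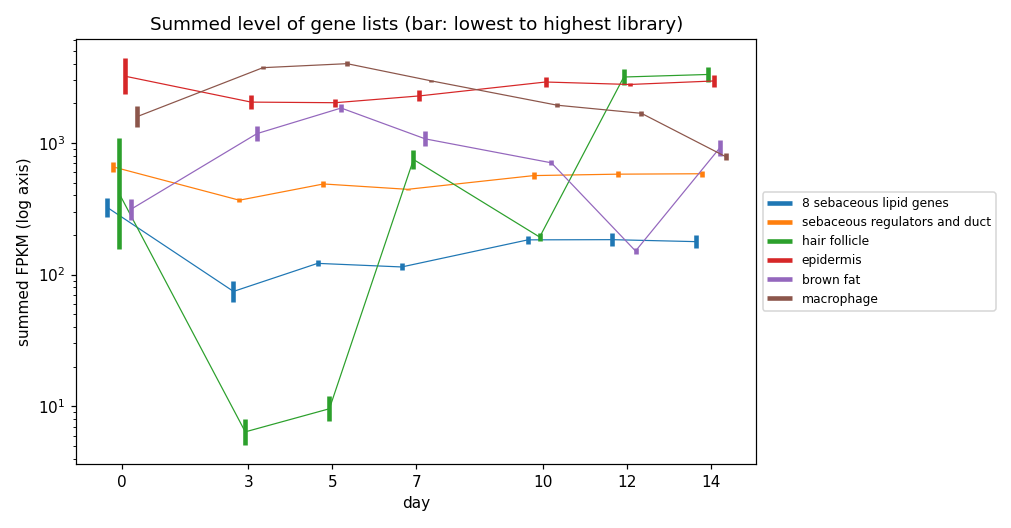
Summed FPKM (vertical axis, log scale) of the 8 sebaceous lipid genes and of 5 gene lists by day (horizontal axis). Bars run from the lowest to the highest of the 4 libraries, thin lines join the geometric middles of the bars, and list positions are shifted sideways to be visible. The sum of the 8 genes was lowest at day 3 (61.8 to 90.0) and that of the hair follicle list swung from 5.12 to 7.99 at day 3 to 2907 to 3773 at day 14.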

How the data were processed

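RNA was sequenced from 28 skin libraries (total RNA, TRIzol, VAHTS Universal V6 kit). The authors deposited raw counts per gene, which were tested here, and FPKM, which equalled count over gene length and library total and were used for levels. The aligner, the counting tool, the annotation and the strand setting are not given in the sources used here. The submitters' processing notes name fastp, R 3.2.0 and the mm10 genome. The authors used DESeq2.

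Counts were fitted with edgeR 4.0.16 (R 4.3.3, TMM scaling, filterByExpr, quasi-likelihood tests, 28 libraries in 1 fit, 21 residual degrees of freedom) over 18107 genes with Benjamini-Hochberg adjustment. Genes with an adjusted p under 0.05 were called. The 11 comparisons set 6 days against Day0 and 5 days against the day before. Single genes were also tested by exact permutation of log2 CPM (prior count 2), and pairs of genes by 100000 permutations within days. The alternatives used DESeq2 1.42.0, limma 3.58.1, other scalings and filters, a replicate block and left-out libraries. The fit was tested on simulated data. Total counts ranged from 36706513 to 40655764. The same-number check of the libraries showed no pairing. The 8 genes and the gene lists were chosen with earlier results of these data known. Named genes were all 8 members, the extremes of 3 lists each day, single genes of lists whose sums are given, and the 3 genes most like each member. Elovl4, Acsbg1, Krt79, Pparg and Scd1 were singled out after their values were seen. One gene of the list of regulators and duct genes is counted in that list but not reported by name here. Coordinates and sequences come from GENCODE vM21 and RefSeq.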

Additional observations from a re-analysis of the deposited data

Results flagged for a closer look

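In 3 of the 56 groups of 4 libraries (8 genes on 7 days), 1 library lay apart from the other three by Dixon's criterion, and 2.8 such groups would be reached by chance. Values are log2 CPM. Mc5r in Day14 replicate 4 was at 4.00, with the others at 3.83 to 3.85. Elovl3 in Day5 replicate 1 was at 5.78, with the others at 6.00 to 6.01, and Elovl3 in Day12 replicate 1 was at 6.43, with the others at 6.28 to 6.31. The Day0 libraries of Dgat2l6 did not meet this criterion, since they split into pairs.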

How the results depend on the processing

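Over 12 alternatives and the left-out libraries, 1662 of 1760 values of single genes (88 fitted log2 fold changes, each under its own alternatives) kept direction and side of the threshold, 26 passed it newly, 43 no longer passed it and 29 changed sign. The fall of Awat1, Awat2, Far2 and Scd3 against Day0 was called on all 6 days under each of these, at an adjusted p under 0.05. The cause was not tested where none is named.

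With the study's stricter limits, applied to the counts of genes alone, 3, 3, 2, 2 and 4 genes were lower than Day0 on days 5, 7, 10, 12 and 14, and 0 were higher at day 14. Between neighbouring days those limits left 1 gene lower for day 10 against day 7 (Dgat2l6), 1 lower for day 14 against day 12 and 0 in each other direction. Without Day0 replicates 2 and 3, an added alternative chosen after seeing the data, 1 gene was higher than Day0 at each of days 3, 5, 7, 10 and 12, and 7, 6, 7, 6, 5 and 6 were lower on the 6 days. The signs then turned for Dgat2l6 (0.68, 1.83, 1.69 and 0.84 at days 3, 5, 7 and 12), Elovl3 (0.29 and 0.16 at days 10 and 12) and Soat1 (-0.036 at day 10). Without Day0 replicates 1 and 4, 1 gene (Soat1) was higher at day 10 and 0 at day 14. Soat1 was also the 1 gene higher at day 10 under library totals and the 3 limma fits, and leaving out single libraries gave 0 to 1 there.

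For day 7 against day 5, 2 genes were lower (Soat1 joined Elovl3) with RLE size factors, no filter, the 8 libraries alone and DESeq2, and 1 to 2 with single libraries left out. There 1 gene was higher with RLE size factors, no filter or the Xist covariate, and 0 to 2 with libraries left out (0 without Day5 replicate 1, 2 or 4 or Day7 replicate 1 or 2). For day 12 against day 10, 2 were lower with upper-quartile scaling, 3 with the 8 libraries alone and 1 to 2 with libraries left out. The replicate numbers did not pair the libraries (same-number r of -0.076 to 0.18, 8 of 28 libraries closest to their own number). With the replicate block, 2 genes were lower in each of these comparisons, and the rise of Dgat2l6 to day 12 had an adjusted p of 0.05.

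Differences near 0 changed sign. Elovl3 at day 10 was at 0.018 with upper-quartile scaling, 0.039 with library totals and 0.062, 0.064 and 0.062 in the limma fits, and -0.12 to 0.089 with libraries left out. At day 12 limma gave 0.010, 0.011 and 0.010. From day 5 to day 7 Awat1 was at -0.014 with RLE size factors, -0.0040 with no filter and -0.014 in DESeq2, and -0.048 to 0.046 with libraries left out. From day 12 to day 14 Far2 was at 0.0014 with RLE size factors, 0.0042 with upper-quartile scaling and 0.0013 in DESeq2. With libraries left out, Far2 ranged from -0.13 to 0.061, Mc5r from -0.018 to 0.075 and Soat1 from -0.040 to 0.098 in that step, and Soat1 from -5.4e-07 to 0.087 between days 3 and 5. Over the wound libraries the r of Soat1 turned from -0.18 to 0.77 with Awat1 (0.14 without the 2 farthest libraries), from -0.21 to 0.49 with Elovl3 and from -0.63 to 0.29 with Dgat2l6.

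Dgat2l6 depended most on single libraries. Leaving out Day0 replicate 1 or 4 brought its day 5 (-1.31 and -1.34) and day 7 values (-1.45 and -1.48) past the threshold in edgeR, and its fall to day 14 missed it without Day14 replicate 2 or 3 (adjusted p = 0.055).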
